A study of Mus musculus with 2 samples.

Results

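The collagen genes were taken as all genes whose symbol is Col, a type number, the letter a and a chain number, which gave 44 of the 26033 genes in the feature tables. They were measured in nuclei of mouse salivary glands at 20 days of age, in 1 library labelled C56BL/6 Csf2-/- (null) and 1 library labelled C56BL/6 Csf2+/- (control). Csf2 encodes the cytokine GM-CSF; the control library is heterozygous, so no wild-type gland was compared, and how many animals each library holds is not given in the sources used here. Nuclei came from whole glands without selection of a cell type, and the libraries were made with a 10x Chromium 3' kit, per the labels' protocols. With 1 library per genotype there is no replicate check and no test: every interval given is a 95% interval for counting error only, and whether a difference exceeds the spread between animals could not be determined.

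Collagens are triple-helical proteins of the extracellular matrix, each molecule built of 3 chains. Fibril-forming types give connective tissue its tensile strength, type IV forms the sheet of the basement membrane under epithelia and around vessels, nerves and myoepithelial cells, and type VI forms beaded filaments around cells. Fibril-associated types bind to fibrils, transmembrane types sit in the plasma membrane, and the multiplexins lie at the edge of basement membranes. In salivary glands the matrix is made mainly by stromal fibroblasts, with basement membrane chains also made by vessels, nerve-associated cells and epithelium.

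The files held 74339 null and 68460 control barcodes with 75630815 and 76002888 molecule counts (UMIs), of which 73341 and 92976 were collagen UMIs. After droplets holding free RNA (74.6% of the kept barcodes in null, 87.4% in control) and doublets were set aside, 13387 null and 8238 control nuclei remained, with median depths of 1931 and 2786 UMIs. The nuclei shared 27 barcode sequences between the libraries. Csf2 had 0 UMIs in the null file and 5 in the control file, too few to check the labels. Secretory gene RNA was present in every class: the 13 seromucous acinar markers summed to 98682 CPM in null and 71922 CPM in control fibroblast nuclei. CPM, counts scaled to the total UMIs of that class in that library, is the unit used throughout. CPM depends on transcript and intron length, so levels were compared within a gene, across classes or libraries, and not between genes.

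Cell classes came from clusters built without any collagen gene and named from other markers as fibroblast-like, endothelial-like and so on; the suffix is left out hereafter. The fibroblast class held 1423 null and 1001 control nuclei, the endothelial class 117 and 111, the Schwann class 101 and 83, and the myoepithelial class 412 and 314. The epithelial group pooled luminal duct, intercalated duct, mucous acinar, seromucous acinar and ionocyte classes, 4307 null and 1668 control nuclei. Clusters that met no marker rule were left out of this group. Among them, cluster 0 held 1109 null and 1053 control nuclei, cluster 1 held 3438 and 152, and cluster 2 held 109 and 2357. The marker list closest to cluster 2 was the seromucous acinar one, with 2 of 13 markers past 2-fold and Lpo in its top 10 genes. Each of the 16 fibroblast, all 16 endothelial, 14 of 15 Schwann and 11 of 12 myoepithelial markers had UMIs in its class in both libraries. Presence alone does not set a class apart: control luminal duct nuclei also had UMIs for all 16 fibroblast markers. Markers 2-fold above the other nuclei were 16 of 16 and 10 of 16 in the fibroblast clusters, 16 of 16 endothelial, 10 of 15 Schwann and 11 of 12 myoepithelial. They were 8 of 14 luminal duct, 4 of 8 intercalated duct and 8 of 9 ionocyte markers. For the acinar classes they were only 3 of 7 (mucous) and 3 of 13 (seromucous). No cluster met the marker rule for pericytes or smooth muscle, and the genes of that list were highest in different classes among the 4 named stromal and myoepithelial ones. Pdgfrb, Abcc9, Cspg4 and Steap4 were highest in fibroblast nuclei (166, 79.3, 69.2 and 171 CPM over both libraries), as were the lower Notch3, Kcnj8 and Higd1b. Rgs5 was highest in endothelial nuclei (46.8 CPM) and Mcam in Schwann nuclei (50.1 CPM). Myh11, Acta2, Tagln and Cnn1, which are also on the myoepithelial list, were highest in myoepithelial nuclei (1552, 406, 109 and 106 CPM). Pericyte collagens were therefore not measured apart from these classes.

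All 44 collagens had at least 1 UMI in nuclei, and 32 had at least 50 UMIs in the class where they were highest. Of these 32, the highest class was fibroblast for 14, Schwann for 6, myoepithelial for 6 and endothelial for 3, and 1 each was highest in clusters 11, 13 and 19, which met no marker rule. The highest class was the same in both libraries for 31 of the 32; the exception was Col7a1. For 21 of the 32 the highest class stood at least 2-fold above the second, and for 9 at least 5-fold. Summed over the family, fibroblast nuclei held 6410 CPM in null and 7664 CPM in control, Schwann nuclei 4386 and 5874 CPM, myoepithelial nuclei 2530 and 2747 CPM, endothelial nuclei 2312 and 2704 CPM and epithelial nuclei 493 and 533 CPM. Free RNA held 751 CPM in null and 1005 CPM in control, above the epithelial sum in both libraries.

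**Figure D1:**
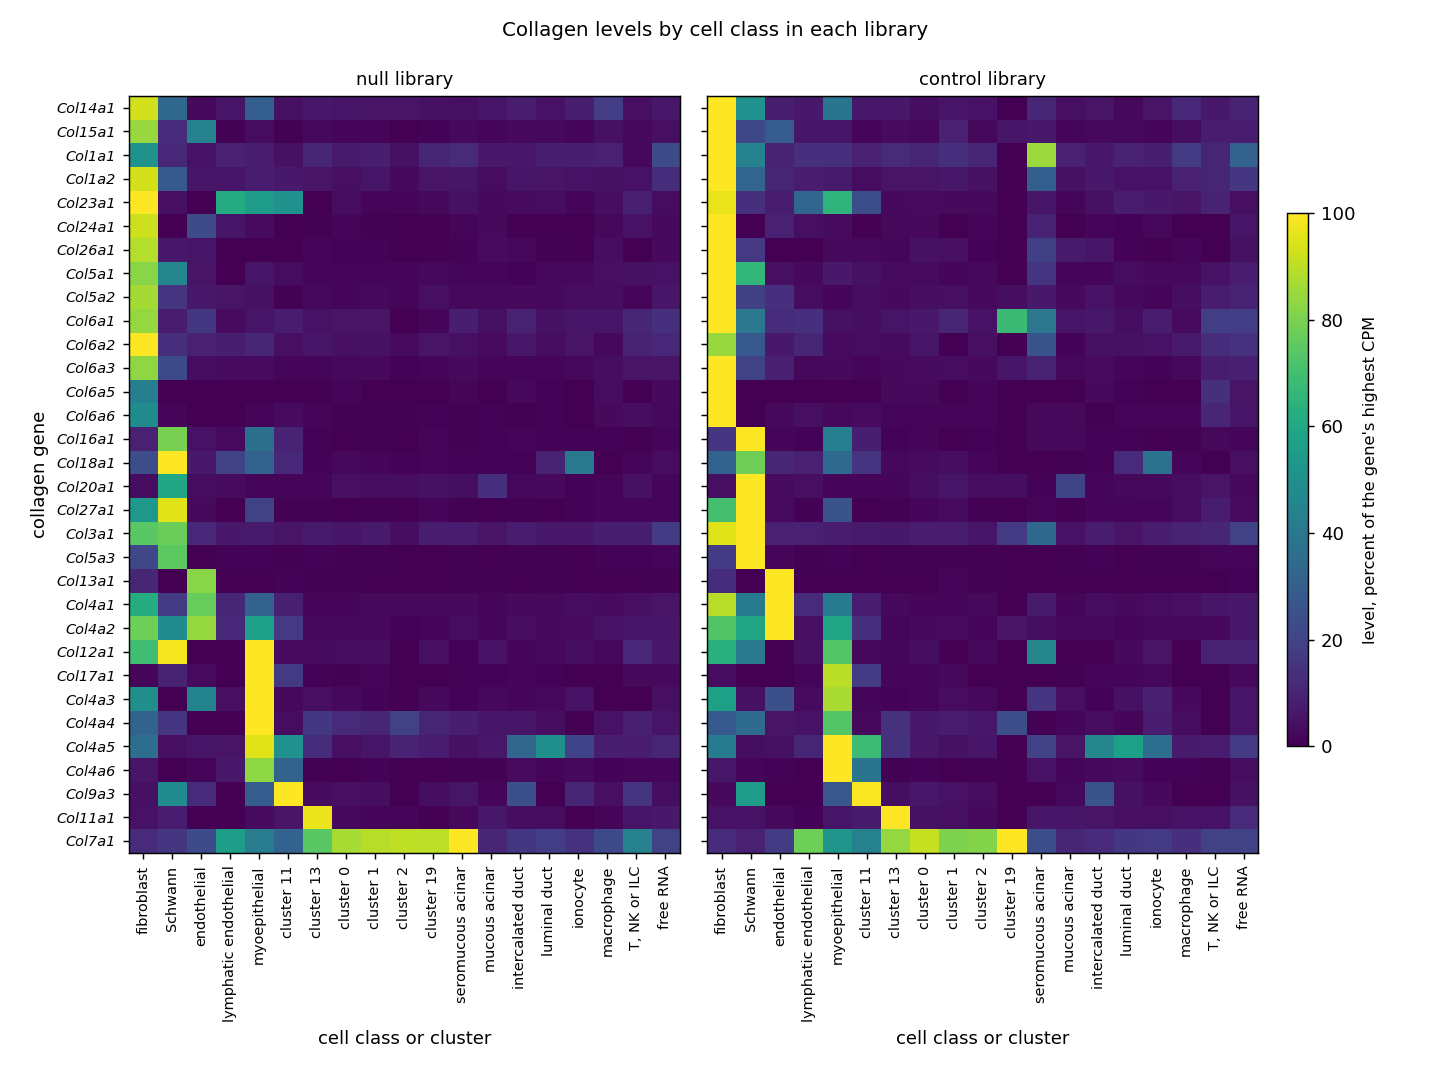
Level of the 32 collagens with at least 50 UMIs in their highest class (rows), across cell classes and free RNA (columns), in the null library (left) and the control library (right). Colour is the CPM as a percentage of the gene's highest CPM over both libraries, with cluster 19 (186 null, 18 control nuclei) and free RNA left out when the highest was found and values above it drawn at 100. Blocks of fibroblast, Schwann, endothelial and myoepithelial genes stand in the same columns in both panels; the control seromucous acinar column (95 nuclei, median 928 UMIs) shows higher levels of Col1a1, Col1a2, Col3a1 and Col6a1 than the null column.

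Among the fibrillar collagens, Col1a1 and Col1a2, the chains of type I collagen, were highest in fibroblast nuclei. Col1a1 had 96.8 CPM in null and 190 CPM in control fibroblast nuclei, and Col1a2 had 582 and 623 CPM. Col1a1 in Schwann nuclei, the second class, had 21.4 and 84.6 CPM. Col5a1 and Col5a2, which encode type V chains that join type I fibrils and limit their width, were also highest in fibroblast nuclei. Col5a1 had 221 CPM in null and 269 CPM in control fibroblast nuclei, and Col5a2 had 735 and 848 CPM. Col5a2 was 5.44-fold above its second class, Schwann.

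Col3a1, whose product forms homotrimers in compliant tissues, did not separate fibroblast from Schwann nuclei. It had 745 CPM (counting interval 627 to 880) in null and 959 CPM (832 to 1100) in control Schwann nuclei, and 715 and 913 CPM in fibroblast nuclei. Col5a3, another type V chain, did separate them: it had 622 CPM in null and 832 CPM in control Schwann nuclei, against 176 and 144 CPM in fibroblast nuclei, 4.59-fold lower over both libraries. Col27a1, a fibrillar chain best known from cartilage, had 499 CPM in null and 522 CPM in control Schwann nuclei and 278 and 368 CPM in fibroblast nuclei. Col24a1, a further minor fibrillar chain, was highest in fibroblast nuclei with 73.9 CPM in null and 79.9 CPM in control.

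Col11a1, a type XI chain known from cartilage, was not highest in a stromal class. It had 269 CPM in null and 278 CPM in control nuclei of cluster 13 (893 and 594 nuclei), whose leading genes are Pex5l and Unc5c, and 13.1 and 13.5 CPM in fibroblast nuclei. Cluster 13 stood 10.4-fold above the next class, the widest gap of any collagen with 50 UMIs other than Col6a5 and Col6a6. Its partner gene Col11a2 had 38 UMIs in its highest class, mucous acinar nuclei, and Col2a1, the cartilage fibril gene, had 1 UMI in all nuclei.

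The 6 type IV genes divided into 2 patterns. Col4a1 and Col4a2, which encode the chains of the basement membrane network found in all tissues, were highest in endothelial nuclei. Col4a1 had 757 CPM in null and 987 CPM in control endothelial nuclei and 611 and 882 CPM in fibroblast nuclei. Col4a2 had 537 CPM in null and 637 CPM in control endothelial nuclei and 498 and 464 CPM in fibroblast nuclei. Endothelial levels of both genes were under 1.5-fold above fibroblast levels over both libraries (1.19-fold for Col4a1, 1.23-fold for Col4a2). Lymphatic endothelial nuclei held less of both: Col4a1 had 105 CPM in null and 117 CPM in control there. In that class 7 of 7 lymphatic markers stood 2-fold above the other nuclei. Its 16 endothelial markers summed to only 692 CPM in null and 416 CPM in control, against 11166 and 11707 CPM in endothelial nuclei. Its luminal duct markers summed to 4837 and 5770 CPM, above its lymphatic ones (1770 and 975 CPM). Whether other cell types add to the values of this class was not tested.

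The other 4 type IV genes, whose chains replace Col4a1 and Col4a2 in specialised basement membranes such as those of kidney and lung, were highest in myoepithelial nuclei. Col4a6 had 264 CPM in null and 318 CPM in control myoepithelial nuclei, 2.59-fold above its second class, cluster 11. Col4a5 had 238 and 250 CPM there, and it was also present in ducts: luminal duct nuclei held 124 CPM in null and 141 CPM in control, and intercalated duct nuclei 82.2 and 115 CPM. Col4a3 had 104 CPM in null and 90.6 CPM in control myoepithelial nuclei, and Col4a4 had 134 and 98.3 CPM. Over the 20 classes and clusters of at least 100 nuclei, Col4a1 and Col4a2 had the most similar pattern of all 496 pairs of the 32 genes (Pearson r of log2 CPM 0.98, rank 1). Col4a5 and Col4a6 had r 0.79 (rank 59) and Col4a3 and Col4a4 r 0.50 (rank 239). These correlations describe classes that share 2 libraries, their depth and their free RNA.

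The type VI genes were fibroblast genes, and the 5 with 50 UMIs were all highest there. Col6a1 had 120 CPM in null and 142 CPM in control fibroblast nuclei, Col6a2 had 155 and 131 CPM, and Col6a3, whose long chain completes the classical type VI trimer, had 478 and 574 CPM. Col6a5 and Col6a6, more recently described chains that resemble the Col6a3 chain, were the most class-restricted of the family. Col6a6 had 150 CPM in null and 308 CPM in control fibroblast nuclei, 11.7-fold above the next class, and Col6a5 had 20.7 and 48.1 CPM, 14.1-fold above the next class. Col6a4 had 2 UMIs in all nuclei.

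The fibril-associated collagens had the widest spread of classes. Col14a1, which binds to the fibril surface, was highest in fibroblast nuclei with 354 CPM in null and 381 CPM in control. Col20a1 was highest in Schwann nuclei, with 536 CPM in null and 894 CPM in control, 5.11-fold above its second class, mucous acinar nuclei (119 and 184 CPM). It had at least 1 UMI in 51 of 101 null and 67 of 83 control Schwann nuclei, which is 50.5% (exact binomial interval 40.4% to 60.6%) and 80.7% (70.6% to 88.6%). With each nucleus thinned to 500 UMIs the shares were 20.8% and 31.3%. Macrophage nuclei, used as a reference class, had a Col20a1 UMI in 2.65% of null and 6.1% of control nuclei. Their median depths were 1575 and 2083 UMIs, against 1682 and 2602 in Schwann nuclei. The shares were 6.15% and 8.70% in T, NK or ILC nuclei and 5.71% and 10.9% in lymphatic endothelial nuclei. The part of free RNA in these shares was not tested. Col16a1 was also highest in Schwann nuclei (236 CPM in null, 296 CPM in control), with myoepithelial nuclei second (110 and 128 CPM).

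Col12a1, which binds fibrils in tissues under load, was highest in myoepithelial nuclei with 70.8 CPM in null and 51.9 CPM in control; Schwann nuclei held 69.7 and 28.2 CPM. Col9a3, a type IX chain known from cartilage, was highest in cluster 11 (181 null, 148 control nuclei), whose leading genes are Lef1 and Edar, with 77.1 CPM in null and 76.5 CPM in control. Of the remaining fibril-associated genes, Col9a2 had 27 UMIs and Col9a1 had 8 in myoepithelial nuclei, and Col19a1 and Col22a1 had 62 and 5 UMIs in all nuclei.

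Among the membrane collagens, Col17a1, which anchors basal epithelial cells to the basement membrane through hemidesmosomes, was highest in myoepithelial nuclei with 164 CPM in null and 147 CPM in control. This was 5.5-fold above cluster 11. Col13a1 was highest in endothelial nuclei with 154 CPM in null and 187 CPM in control, 7.72-fold above fibroblast nuclei. Col23a1 was highest in fibroblast nuclei with 136 CPM in null and 131 CPM in control and also present in myoepithelial nuclei (74.3 and 88.4 CPM). Col25a1 had 77 UMIs in all nuclei, 15 of them in cluster 11.

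The multiplexins parted between classes. Col15a1 had 495 CPM in null and 585 CPM in control fibroblast nuclei, with endothelial nuclei second (257 and 169 CPM). Col18a1, the source of the fragment endostatin, had 204 CPM in null and 160 CPM in control Schwann nuclei, with ionocytes second (81.6 and 76.1 CPM). The short-chain Col8a1 was highest in endothelial nuclei, with 16 null and 31 control UMIs, 47 in all. Col8a2 had 12 UMIs in its highest class, T, NK or ILC nuclei, and Col10a1 had 5 in cluster 11. Col26a1 was highest in fibroblast nuclei (75.8 CPM in null, 85.3 CPM in control), and Col28a1, known from peripheral nerve in mice, had 7 UMIs in Schwann nuclei.

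Col7a1, which encodes the anchoring fibril of skin, was spread over more classes than the other collagens. It had 177 CPM in null and 185 CPM in control nuclei of cluster 0, 181 and 163 CPM in cluster 1, 184 and 165 CPM in cluster 2 and 151 and 171 CPM in cluster 13. In seromucous acinar nuclei it had 203 CPM in null and 48.4 CPM in control, and in mucous acinar nuclei 21.5 and 21.8 CPM. Lymphatic endothelial nuclei held 114 CPM in null and 159 CPM in control, and cluster 19, its highest class over both libraries, 183 and 421 CPM from 66 and 13 UMIs. Free RNA held 39.5 CPM in null and 39.4 CPM in control. Its neighbours on either side differed from each other in their order of classes. Over both libraries Uqcrc1 was highest in luminal duct nuclei (70.6 CPM, against 45.1 CPM in cluster 0), where Col7a1 had 34.8 CPM. Ucn2 was low, but like Col7a1 it was higher in cluster 0 (4.69 CPM), cluster 1 (3.89 CPM), cluster 2 (2.77 CPM), seromucous acinar nuclei (4.91 CPM) and cluster 13 (3.10 CPM) than in luminal duct (1.56 CPM), fibroblast (1.60 CPM) or mucous acinar nuclei (0.62 CPM). Whether the counting used strand is not given in the sources used here, and reads assigned between these genes could not be told apart.

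Promoter sequences are shown for the 2 type VI genes that were lower by at least 1.5-fold in null fibroblast nuclei. They are also shown for 3 genes whose highest class stood at least 5-fold above the second. Of these 3, Col20a1 was not confined to its highest class: 23.1% of null and 42.2% of control mucous acinar nuclei had a Col20a1 UMI. RefSeq windows of build GRCm38.p6 matched 35 of the 44 collagens, whereas the counts were made on GRCm39. Each printed sequence is the 120 bases before the annotated start on the gene's own strand: Col6a5 at chr9:105960644-105960763 (minus strand), Col6a6 at chr9:105828086-105828205 (minus strand), both fibroblast genes, Col20a1 of Schwann nuclei at chr2:180986415-180986534 (plus strand), Col17a1 of myoepithelial nuclei at chr19:47692043-47692162 (minus strand) and Col11a1 of cluster 13 at chr3:114030420-114030539 (plus strand). Capitals mark GGGCGG or CCAAT on either strand and TATAAA on the gene's strand.
Col6a5: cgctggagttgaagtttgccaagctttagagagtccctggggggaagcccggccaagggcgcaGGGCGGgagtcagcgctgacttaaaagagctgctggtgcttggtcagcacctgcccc
Col6a6: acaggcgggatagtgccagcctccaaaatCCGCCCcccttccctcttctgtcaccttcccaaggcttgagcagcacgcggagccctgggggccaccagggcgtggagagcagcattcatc
Col20a1: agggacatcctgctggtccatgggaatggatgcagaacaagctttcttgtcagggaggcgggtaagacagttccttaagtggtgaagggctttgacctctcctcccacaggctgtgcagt
Col17a1: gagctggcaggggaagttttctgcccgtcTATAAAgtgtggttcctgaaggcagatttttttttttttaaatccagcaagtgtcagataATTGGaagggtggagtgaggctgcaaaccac
Col11a1: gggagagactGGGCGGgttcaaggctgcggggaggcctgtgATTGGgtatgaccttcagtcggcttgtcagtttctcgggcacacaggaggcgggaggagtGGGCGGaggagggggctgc

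In the 250 bases before the start, GGGCGG on either strand was present in 21 of the 35 collagens (60%) and in 32.9% of all 27025 promoters. CCAAT on either strand was present in 12 of the 35 (34.3%) and 34.5% of all promoters, and TATAAA on the gene's strand in 5 of the 35 (14.3%) and 8.12% of all promoters. At 16 to 40 bases before the start, TATAAA was present in 1 of the 35 (2.86%) and 2.22% of all promoters. The TATAAA marked in Col17a1 lies outside that range. No 2 matches overlap in the printed sequences, and matches describe letters only. The Col6a5 and Col6a6 starts lie 133 kb apart on chromosome 9. The annotated starts of Col4a1 and Col4a2 lie on opposite strands of chromosome 8 and overlap by 22 bases, and those of Col4a6 and Col4a5 lie on opposite strands of chromosome X with 1342 bases between them.

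In fibroblast nuclei the family as a whole was lower in null than in control: 6410 CPM (counting interval 6322 to 6500) in null and 7664 CPM (7567 to 7762) in control, a log2 ratio of -0.26 (-0.28 to -0.23). Of the 33 collagens with at least 20 UMIs, 5 were lower in null by at least 1.5-fold, against 8.3% of the 12132 genes measured there, and 0 were higher by that fold, against 8.84% of genes. Among the 33, 26 had a log2 ratio below 0 and 7 above it, against 53.7% of all genes measured below 0, and the median was -0.20 beside -0.03 for all genes. Free RNA showed a difference of the same direction, a log2 ratio of -0.42 (-0.44 to -0.40), and its part in the fibroblast values was not tested; with the free RNA profile subtracted the fibroblast log2 ratio was -0.20.

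**Figure D2:**
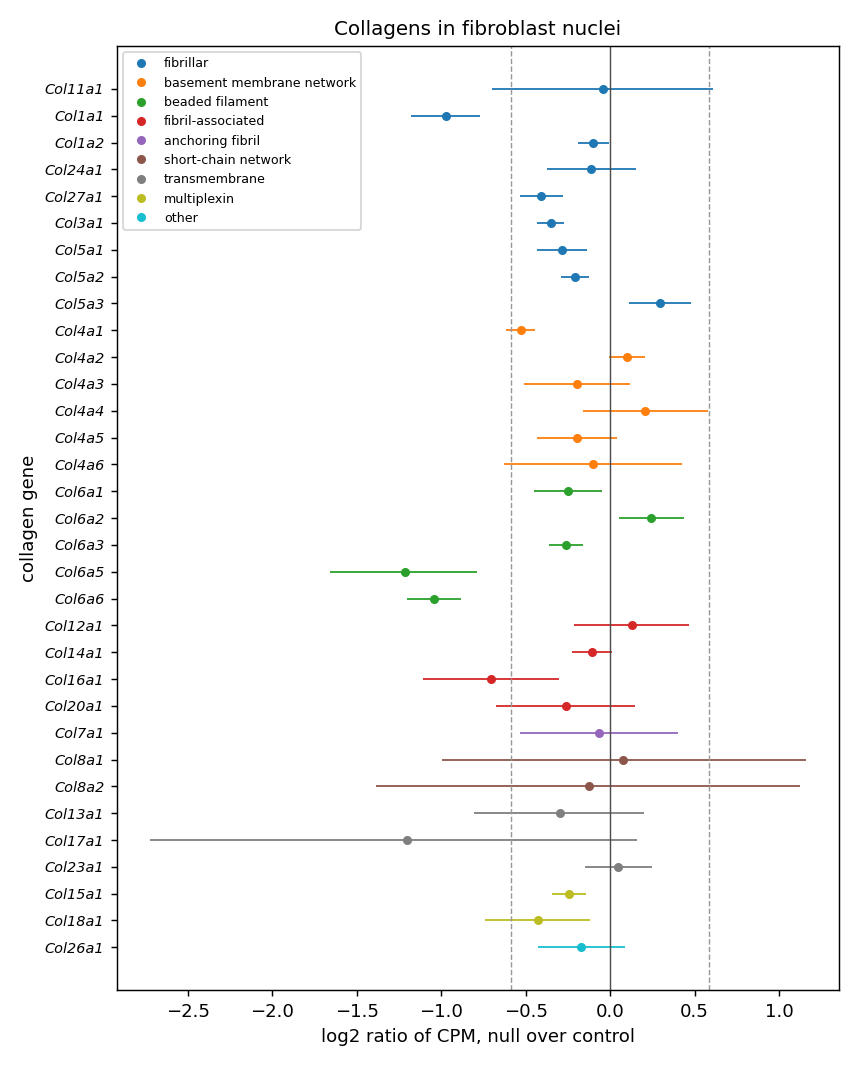
Log2 ratio of null over control CPM in fibroblast nuclei for the 33 collagens with at least 20 UMIs, ordered and coloured by subfamily. Bars are 95% counting intervals, the solid line is 0 and the dashed lines are 1.5-fold; Col1a1, Col6a5, Col6a6, Col16a1 and Col17a1 lie below the lower dashed line, and Col5a3 and Col6a2 have intervals above 0.

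Col1a1 had the largest difference among the fibrillar genes. Its 304 null and 593 control UMIs gave 96.8 CPM (86.3 to 108) in null and 190 CPM (175 to 206) in control, a log2 ratio of -0.97 (-1.18 to -0.77). Col1a2 differed little, with a log2 ratio of -0.10 (-0.19 to -0.01). Col3a1 had -0.35 (-0.43 to -0.27), Col27a1 -0.41 (-0.54 to -0.28), Col5a1 -0.29 (-0.43 to -0.14) and Col5a2 -0.21 (-0.29 to -0.13). Col5a3 went the other way at 0.29 (0.11 to 0.48), from 553 null and 448 control UMIs.

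Both newer type VI genes were among the collagens that differed most. Col6a6 had 470 null and 962 control UMIs and a log2 ratio of -1.04 (-1.21 to -0.88), and Col6a5 had 65 and 150 UMIs and -1.22 (-1.66 to -0.79). The classical chains differed less: Col6a1 had -0.25 (-0.45 to -0.05), Col6a3 -0.26 (-0.36 to -0.16) and Col6a2 0.24 (0.05 to 0.44). Col6a6 had a UMI in 21.7% of null and 45.6% of control fibroblast nuclei at median depths of 2090 and 2991 UMIs. Thinned to 500 UMIs the shares were 6.89% and 11.5%, and unthinned macrophage nuclei had 1.18% and 1.36%. In free RNA Col6a6 also differed, with 6.56 CPM in null and 17.3 CPM in control, levels below those of fibroblast nuclei by more than 10-fold.

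The 2 other collagens past 1.5-fold in fibroblast nuclei were low there. Col16a1 had 27.4 CPM in null and 44.6 CPM in control, a log2 ratio of -0.70 (-1.11 to -0.30). Col17a1 had 7 null and 16 control UMIs, and its interval (-2.73 to 0.16) included 0. Col4a1 stood just inside 1.5-fold at -0.53 (-0.61 to -0.44), Col4a2 at 0.10 (-0.00 to 0.20), Col15a1 at -0.24 (-0.34 to -0.14) and Col14a1 at -0.11 (-0.22 to 0.01). Of the 11 collagens under 20 UMIs in fibroblast nuclei, Col10a1 had 10 null and 1 control UMIs, a log2 ratio of 3.31 (0.50 to 8.75).

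**Figure D3:**
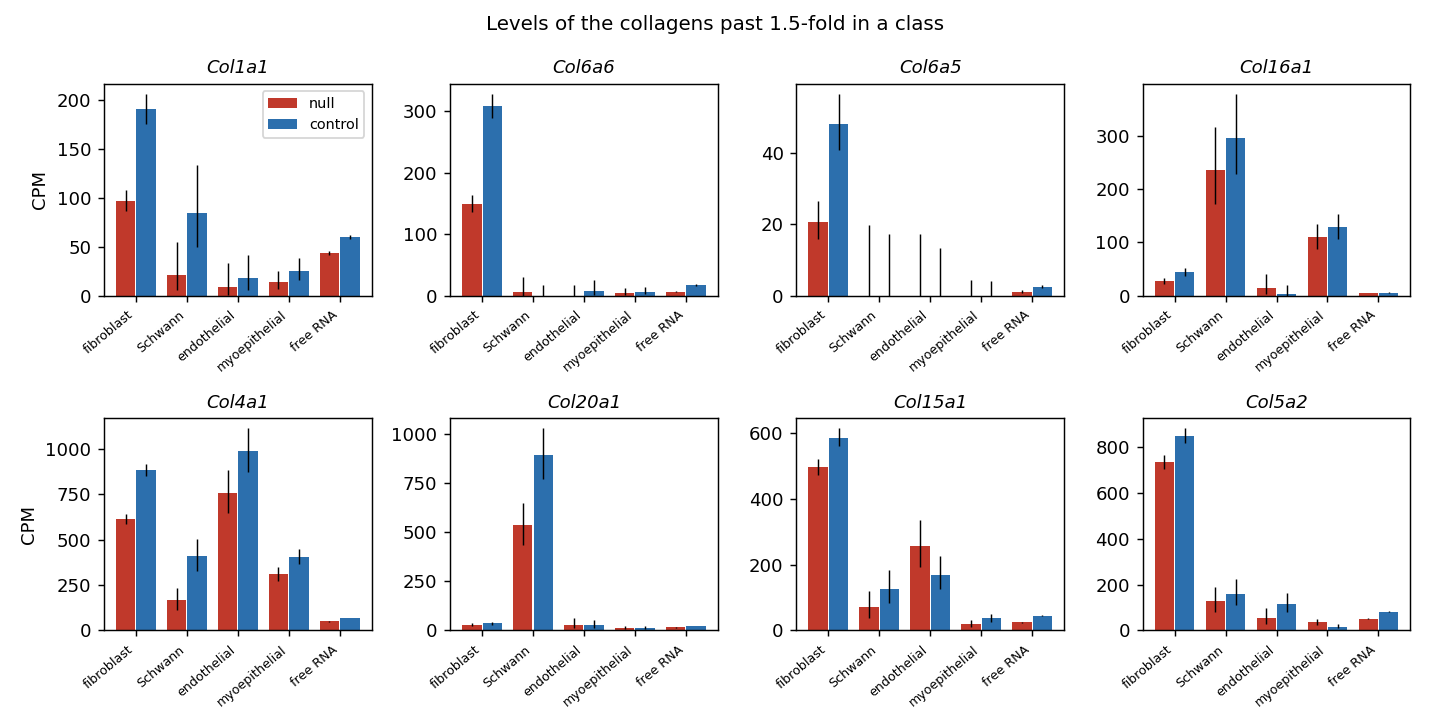
CPM in null (red, left) and control (blue, right) libraries for the 8 collagens past 1.5-fold in at least 1 of the 4 classes drawn, with a counting interval on one side of 0 there; free RNA is drawn beside them. Error bars are 95% Poisson intervals; Col1a1 is 96.8 CPM in null and 190 CPM in control fibroblast nuclei, and Col20a1 is 536 and 894 CPM in Schwann nuclei.

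Of the 7 pairs of related chains compared in fibroblast nuclei, 3 had a difference between their log2 ratios with an interval on one side of 0, and for 4 the interval included 0. Col1a1 made up 14.3% of the Col1a1 and Col1a2 UMIs of null fibroblast nuclei and 23.4% of those of control, and the 2 log2 ratios differed by -0.88 (-1.10 to -0.65). Col4a1 made up 55.1% of Col4a1 and Col4a2 UMIs in null and 65.5% in control fibroblast nuclei, a difference of -0.63 (-0.76 to -0.50). The same difference was -1.02 (-1.85 to -0.21) in Schwann nuclei, -0.32 (-0.64 to 0.01) in myoepithelial nuclei and -0.14 (-0.59 to 0.32) in endothelial nuclei. In free RNA it was -0.23 (-0.36 to -0.10). For Col6a1 and Col6a2 the fibroblast difference was -0.49 (-0.77 to -0.21), whereas for Col6a5 and Col6a6 it was -0.17 (-0.65 to 0.29), an interval that includes 0. The Col5a1 and Col5a2 difference was -0.08 (-0.24 to 0.09), that of Col4a5 and Col4a6 -0.09 (-0.67 to 0.49) and that of Col4a3 and Col4a4 -0.40 (-0.89 to 0.09).

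Fibroblast nuclei formed 7 subclusters, built without collagens, and the collagens varied widely among them. Subcluster 6 (46 null, 62 control nuclei), led by Adamts16, Lgr5 and Pi16, a marker of adventitial fibroblasts, had the most type I and III collagen. Col1a1 had 285 CPM in null and 648 CPM in control nuclei of subcluster 6, against at most 106 and 218 CPM in any other subcluster. Col1a2 had 1210 and 1254 CPM, Col3a1 1524 and 2051 CPM, and Col14a1 718 and 670 CPM there. The same nuclei had the least Col15a1 (49.2 CPM in null, 145 CPM in control) and the least Col4a1 (285 and 181 CPM). Other members of the same subfamilies differed in this. Over both libraries the fibrillar Col5a2 (626 CPM), Col24a1 (12.4 CPM) and Col27a1 (55.8 CPM) were lowest in subcluster 6, and the type IV genes Col4a3 (68.2 CPM) and Col4a6 (46.5 CPM, 2 null and 13 control UMIs) were highest there.

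Subcluster 3 (292 null, 223 control nuclei), led by Dcc, Kcnq3 and Syt1, held most Col24a1: 215 CPM in null and 243 CPM in control, against at most 84.9 and 76.5 CPM elsewhere. Over both libraries it also had the highest Col15a1 (710 CPM) and Col13a1 (43.5 CPM). Col6a5 and Col6a6 were highest over both libraries in subcluster 0 (236 null, 394 control nuclei), led by Adgrb3, Syndig1 and Alpl. Col6a6 had 265 CPM in null and 432 CPM in control nuclei of subcluster 0, and Col6a5 had 44.6 and 79.2 CPM. Subcluster 4 (94 null, 49 control nuclei), led by Myo5b and Lmx1b and the deepest of the 7 (median 3370 and 4512 UMIs), had the lowest summed collagen level, 4923 CPM in null and 5389 CPM in control. It also had the most Col7a1, 105 CPM in null and 98.5 CPM in control, against at most 49.2 and 50.3 CPM in any other subcluster. Its top 10 genes also held D7Ertd443e and Dgkg, which were among the top 10 of clusters 0 and 1 respectively. Col7a1 had 181 and 180 CPM over both libraries in those clusters. Whether nuclei joined with other cell types add to the Col7a1 level of subcluster 4 was not tested.

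**Figure D4:**
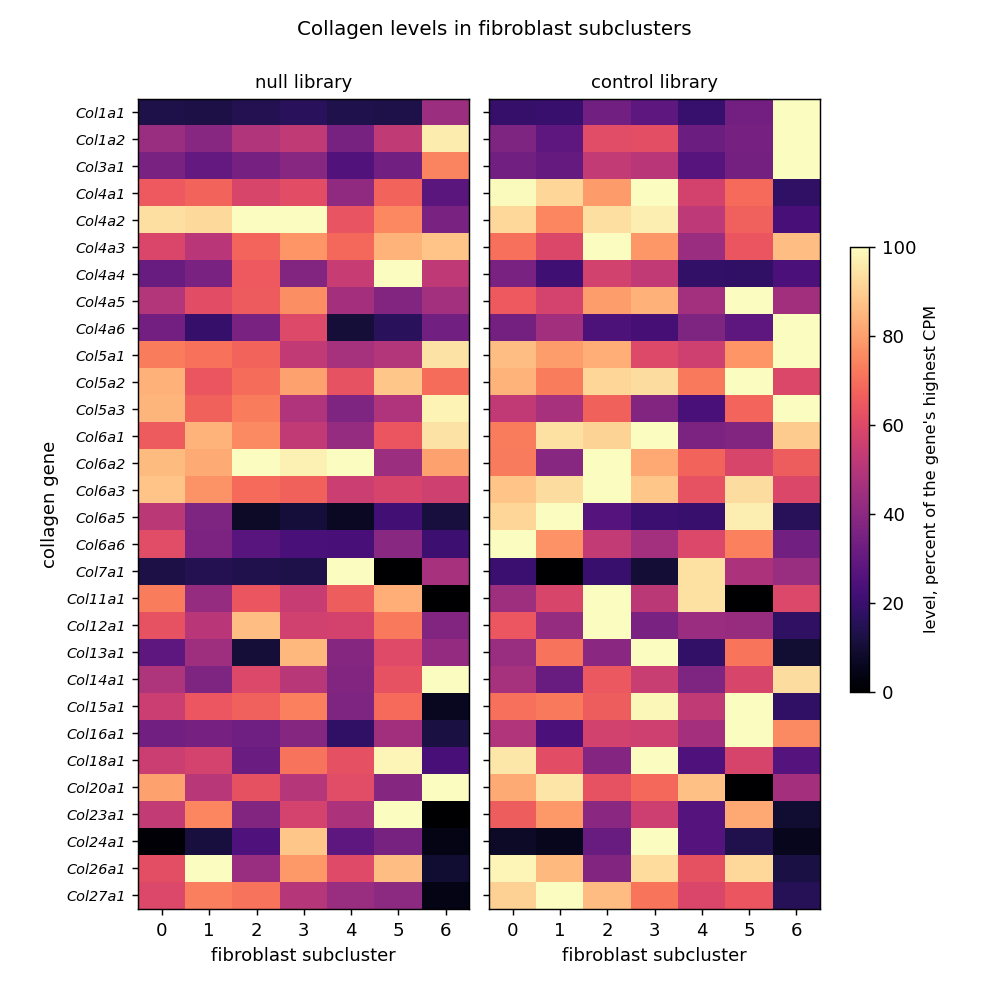
Level of the 30 collagens with at least 50 UMIs in fibroblast nuclei, in the 7 fibroblast subclusters (columns), in null (left) and control (right), as a percentage of the gene's highest CPM over these columns and both libraries. Subcluster 6 is highest for Col1a1, Col1a2 and Col3a1 in both panels and subcluster 3 for Col24a1.

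The subclusters were not evenly filled: subcluster 0 held 236 null and 394 control nuclei, and subcluster 1, of low depth (median 1698 and 1758 UMIs), held 415 and 84. The summed log2 ratio was below 0 in each of the 7, from -0.12 (-0.22 to -0.02) in subcluster 1 to -0.33 (-0.39 to -0.26) in subcluster 2; in subcluster 5 the interval reached 0. Col6a6 was lower in null in all 7, with log2 ratios between -1.38 in subcluster 4 and -0.71 in subclusters 0 and 6. Its intervals included 0 in subclusters 5 and 6. Col6a5 had 27 null and 102 control UMIs in subcluster 0. Its log2 ratio there was -0.83 (-1.50 to -0.20), against -1.22 over all fibroblast nuclei. Col1a1 was lower in null in all 7 as well, from -1.36 in subcluster 5 (9 null and 13 control UMIs) to -0.51 in subcluster 4. Its intervals included 0 in subclusters 1 (-1.40 to 0.19) and 4 (-1.31 to 0.28). The 7 subclusters come from the same 2 libraries and do not replicate one another. Col4a1 was lower in 6 of them and higher in subcluster 6 (0.65, -0.09 to 1.38). Without subclusters 0 and 1 the summed fibroblast log2 ratio was -0.30.

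**Figure D5:**
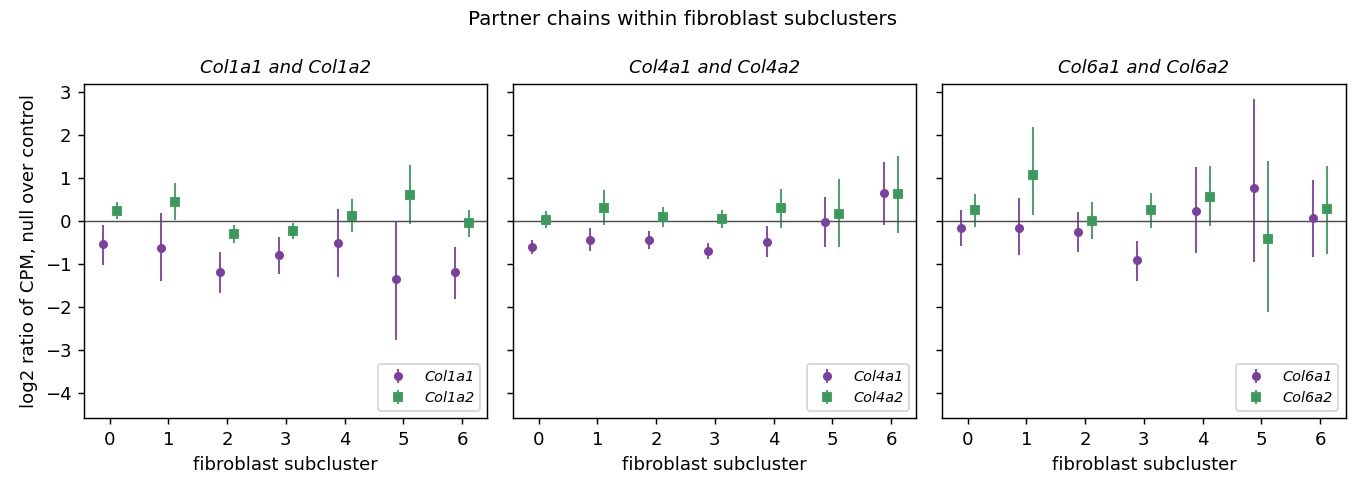
Log2 ratio of null over control CPM for the partner chains Col1a1 and Col1a2, Col4a1 and Col4a2, and Col6a1 and Col6a2 in the 7 fibroblast subclusters, with 95% counting intervals. Col1a1 lies below Col1a2 in all 7 and Col4a1 below Col4a2 in subclusters 0 to 5.

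In Schwann nuclei the summed collagen log2 ratio was -0.42 (-0.55 to -0.29), from 818 null and 1249 control UMIs. Of 15 collagens measured, 4 were lower in null by 1.5-fold, against 19.2% of genes, and 0 were higher, against 10.9%; the median was -0.36 beside -0.13 for all genes. Of these 4, 3 had intervals on one side of 0. Col20a1 had 100 null and 190 control UMIs and a log2 ratio of -0.74 (-1.10 to -0.38). Col4a1 had 166 CPM in null and 409 CPM in control, a log2 ratio of -1.30 (-1.94 to -0.69), and Col1a1 had 4 and 18 UMIs, -1.98 (-4.00 to -0.38). Of the 16 fibroblast markers, 12 had UMIs in Schwann nuclei in each library, and their sum was 2547 CPM in null and 2671 CPM in control, against 8978 and 9733 CPM in fibroblast nuclei. Abca8a (1609 CPM in null, 1472 CPM in control Schwann nuclei) was higher than in fibroblast nuclei (638 and 629 CPM), and Lama2 had 633 and 828 CPM. Pdgfra had 16.1 CPM in null and 18.8 CPM in control Schwann nuclei, against 673 and 856 CPM in fibroblast nuclei, and Lum had 0 and 4.70 CPM. The part of fibroblast RNA in the Schwann values was not tested.

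In endothelial nuclei the summed log2 ratio was -0.23 (-0.39 to -0.06). Of 9 collagens measured, 2 were lower in null by 1.5-fold, against 16.7% of genes, and 1 was higher, against 11.4%; the median was -0.28 beside -0.09 for all genes. Col15a1 was the higher one, with 55 null and 47 control UMIs and a log2 ratio of 0.60 (0.01 to 1.20), above 0 where the fibroblast value was below it; the difference between the 2 classes was not tested. It passed 1.5-fold under 5 of 11 alternatives and fell short under 6, with values between 0.30 and 0.69, and the share of nuclei with a Col15a1 UMI was 25.6% in null and 26.1% in control. Col5a2 had 12 null and 32 control UMIs and -1.04 (-2.13 to -0.04). Its null UMIs came from 3 of 117 nuclei and its control UMIs from 21 of 111, whereas the interval treats UMIs as independent. Col4a1 had -0.38 (-0.67 to -0.10) and Col4a2 -0.25 (-0.60 to 0.10).

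In myoepithelial nuclei the summed log2 ratio was -0.12 (-0.20 to -0.03). Of 25 collagens measured, 3 were lower in null by 1.5-fold, against 11.3% of genes, and 2 were higher, against 9.18%, shares near the background; the median was -0.11 beside -0.07 for all genes. Col5a2, with 31 null and 14 control UMIs, was higher in null at 1.24 (0.29 to 2.27) and was the only one of the 5 with an interval on one side of 0. Among the type IV genes, Col4a1 had -0.38 (-0.62 to -0.15), Col4a6 -0.27 (-0.53 to -0.01), Col4a5 -0.07 (-0.35 to 0.21) and Col4a4 0.45 (0.04 to 0.87). Col17a1 had 0.16 (-0.19 to 0.51).

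The pooled epithelial group had a summed log2 ratio of -0.11 (-0.18 to -0.04), which turned to 0.0393 when the 100 most abundant free RNA genes were left out of the totals. Of 32 collagens measured, 10 were lower in null by 1.5-fold, against 13.4% of genes, and 3 were higher, against 9.14%; the median was -0.30 beside -0.11 for all genes. The pool did not hold the same classes in the 2 libraries: seromucous acinar nuclei were 1779 of the null and 95 of the control nuclei, and the control ones carried the 8 most abundant free RNA genes at 103% of their level in free RNA. Cluster 2, whose closest marker list was also the seromucous acinar one, lay outside the pool and held 109 null and 2357 control nuclei. Col7a1 was the gene with the largest difference, 83.7 CPM in null and 29.6 CPM in control. Within luminal duct nuclei it had 36.9 and 33.0 CPM and within mucous acinar nuclei 21.5 and 21.8 CPM. Col4a5 had 52.7 CPM in null and 99.9 CPM in control over the pool, a log2 ratio of -0.92 (-1.11 to -0.73). Its log2 ratio was -0.18 (-0.42 to 0.05) within luminal duct nuclei. Within ionocytes it was -0.86 (-1.70 to -0.07), from 19 null and 50 control UMIs. Intercalated duct nuclei had a Col4a5 UMI in 13.8% of null and 20.8% of control nuclei, and mucous acinar nuclei in 3.49% and 4.79%. Control nuclei had the higher median depth in both of these classes. How much of the pool's Col4a5 difference comes from its makeup was not tested. Col4a4 was the other one higher with an interval above 0, from 64 null and 17 control UMIs (1.22, 0.43 to 2.09). The collagens lower with an interval below 0 were, besides Col4a5, Col18a1 (-0.95, -1.39 to -0.52), Col4a6 (-0.97), Col4a3 (-1.19), Col5a1 (-0.81), Col23a1 (-0.76), Col26a1 (-1.28) and Col27a1 (-1.18), and each but Col18a1 had under 50 UMIs in either library. In luminal duct nuclei the summed log2 ratio was -0.06 (-0.19 to 0.06) and in intercalated duct nuclei -0.19 (-0.37 to -0.00).

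Genes that process collagens were read from lists in fibroblast nuclei. Of 17 measured genes for hydroxylation, glycosylation and folding in the endoplasmic reticulum, 3 were lower in null by 1.5-fold, against 8.3% of all genes, and 1 was higher, against 8.84%, with a median log2 ratio of -0.15 beside -0.03 for all genes. Plod2, which hydroxylates lysines that are later cross-linked, had 135 CPM in null and 280 CPM in control, a log2 ratio of -1.05 (-1.23 to -0.89). Serpinh1, the collagen chaperone HSP47, had 44.0 and 75.7 CPM (-0.78, -1.10 to -0.47), and P4ha2, a prolyl hydroxylase subunit, had 20.1 and 41.4 CPM (-1.04, -1.50 to -0.60). P3h4 was the higher one, from 23 null and 10 control UMIs (1.19, 0.06 to 2.43). Thus 3 of the 4 that passed the fold were lower, while P4hb, the shared subunit of prolyl hydroxylase, had -0.15 (-0.35 to 0.04).

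In each of the other lists 0 to 2 genes passed the fold downward and 0 or 1 upward, to be read against the same 8.3% and 8.84% of all genes. Of 12 measured genes for propeptide removal and cross-linking, 2 were lower and 0 higher; Tll2, a propeptidase, had -1.03 (-1.67 to -0.42). Of 8 turnover genes, 0 were lower and 1 higher: Timp3, a metalloproteinase inhibitor held in the matrix, had 219 CPM in null and 142 CPM in control (0.63, 0.45 to 0.80). Of 5 secretion genes and 9 receptors, 0 passed the fold in either direction. Of 8 fibril-binding matrix genes, 2 were lower and 1 higher, with a median of 0.32. Dpt (dermatopontin) had 40.5 CPM in null and 91.1 CPM in control (-1.17, -1.48 to -0.86), Fn1 (fibronectin) had 40.1 and 71.2 CPM (-0.83, -1.15 to -0.50), and Ogn (osteoglycin) had 49.4 and 29.8 CPM (0.73, 0.35 to 1.11). Of 11 basement membrane partners, 2 were lower and 0 higher. Lamc1, the laminin chain shared by most laminins, had 436 CPM in null and 705 CPM in control fibroblast nuclei (-0.69, -0.79 to -0.60) and 252 and 578 CPM in Schwann nuclei (-1.20, -1.72 to -0.70).

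In Schwann nuclei 4 of 10 basement membrane partners and 3 of 3 genes for propeptide removal and cross-linking were lower in null by 1.5-fold, and 0 of either list were higher, against 19.2% of all genes lower and 10.9% higher in that class. Adamts2, which removes the amino propeptide of fibrillar collagens, had 53.6 CPM in null and 160 CPM in control Schwann nuclei (-1.58, -2.76 to -0.53), and Bmp1, which removes the carboxy propeptide, had 53.6 and 132 CPM (-1.30, -2.50 to -0.21). The others lower there past 1.5-fold with an interval below 0 were Hspg2 (perlecan, -1.44), Pxdn (peroxidasin, -0.99), Mmp2 (-1.58), Timp3 (-0.61), P3h2 (-0.66) and the collagen receptor subunit Itga2 (-0.68). Timp3 was thus lower in null Schwann nuclei and higher in null fibroblast nuclei, a difference that was not tested. In endothelial nuclei the receptor Adgrg6 had 60.7 CPM in null and 162 CPM in control (-1.42, -2.43 to -0.50), Sec24d -0.85 and Lamc1 -0.66, while Ppib (1.45) and Tll1 (0.83) were higher. In myoepithelial nuclei 1 of 11 endoplasmic reticulum genes was lower, against 11.3% of all genes, and 1 higher, against 9.18%, shares near the background; the higher one, Plod3, had 20 null and 8 control UMIs. Fmod (fibromodulin) was higher there (1.61), and Fap, a fibroblast protease, was lower (-1.06). Within luminal duct nuclei Ppib had 0.64 and Fap -1.18, and of 11 basement membrane partners 0 were lower and 1 higher by 1.5-fold. Within intercalated duct nuclei Ppib had 0.65, Fap -0.99 and Lama5 -0.95, and in mucous acinar nuclei Lama5 had -0.65. In the pooled epithelial group, whose classes differ in number between the libraries, the values mix levels within classes with the makeup of the pool. There Ppib (0.65) and P4hb (0.59) were higher, and Colgalt1 (-0.72), Fkbp10 (-1.33), P4ha2 (-0.84), Adamts2 (-0.91), Fap (-0.87), Timp3 (-0.76), Mmp14 (-0.75), Ddr2 (-0.84), Itga2 (-1.39), Lamc1 (-0.63), Lama5 (-1.03) and Lama4 (-0.66) were lower, each with an interval on one side of 0.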

How the data were processed

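The deposited files held raw UMI counts per gene and barcode, made by the authors with Cell Ranger 7.0.0 on GRCm39, per the submitters' processing notes; whether intronic reads were counted is not given in the sources used here. Kept barcodes had 500 or more UMIs, 300 or more genes and a mitochondrial share below 5%. Scanpy 1.11.5 was used (2000 variable genes without collagens, 30 components, 20 neighbours, Leiden resolution 1.0). Clusters whose share of the 8 most abundant free RNA genes was at least 0.75 of that in barcodes under 1000 UMIs were set aside as free RNA. Nuclei with a Scrublet score of at least 0.25 were removed (689 null, 341 control); Scrublet's own threshold marked 26 null nuclei (0.185%) and was taken as not having worked there. A cluster was named where at least 3 of its markers stood 2-fold above the other nuclei, 1 was among its top 10 genes or 50% or more of the list passed, and no other list had more in that top 10. The free RNA, doublet and naming thresholds were set after seeing the clusters.

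UMIs were summed per class and library as CPM. Intervals are exact Poisson for levels, exact conditional binomial for ratios and exact binomial for shares (SciPy 1.17.1); for the difference between partner chains they are exact conditional intervals of the odds ratio, or normal ones for pairs with at least 6000 UMIs. They cover counting error only. A gene was measured in a class with at least 20 UMIs over both libraries, and called past 1.5-fold. Collagens were described under their highest class from 50 UMIs. Collagens and processing genes past 1.5-fold with an interval on one side of 0 were named for fibroblast, endothelial, Schwann, myoepithelial and pooled epithelial nuclei. Collagens within single epithelial classes were not named by this rule, though some passed it there. The 8 collagens with most UMIs in fibroblast nuclei were also named, and the other genes named were chosen after their values were seen. The ratio and its interval were checked on simulated Poisson class sums. These hold no clumping of UMIs within nuclei, so the check does not show how the intervals behave where UMIs are clumped. Members and lists were chosen with earlier results of these data known. Planned results for pericytes could not be given.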

Additional observations from a re-analysis of the deposited data

How the results depend on the processing

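In fibroblast nuclei the summed log2 ratio, -0.26 as reported, stayed below 0 under every alternative run: -0.23 at Leiden resolution 2.0, -0.19 with classes from markers per nucleus, -0.35 with doublets kept, -0.21 with nuclei thinned to 500 UMIs, -0.20 with the free RNA profile subtracted, -0.17 without the 100 most abundant free RNA genes and -0.30 without the 2 subclusters that split by library (chosen after seeing the data). Classes from markers per nucleus gave -0.84 in endothelial nuclei and thinning gave -0.23 in myoepithelial nuclei. The epithelial ratio, -0.11, reversed to 0.0393 without the 100 free RNA genes and to 0.0045 with median-of-ratios scaling. In fibroblast nuclei Col1a2 reversed to 0.0491 with classes from markers per nucleus and to 0.0659 when thinned, so its direction is not settled. Col14a1 also changed sign, to 0.0528 with classes from markers per nucleus, as did Col4a2, to -0.0174 with doublets kept. Col5a2 stayed below 0 there but ranged from -0.33 with doublets kept to -0.03 with classes from markers per nucleus. The cause of these shifts was not tested.

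Counts of collagens past 1.5-fold moved as follows. With no UMI minimum, higher counts became 4 in Schwann, 5 in endothelial, 5 in epithelial and 3 in fibroblast nuclei, and lower counts 11 in Schwann, 6 in endothelial and 5 in myoepithelial nuclei. With at least 50 UMIs, lower counts became 2 in Schwann, 0 in endothelial, 5 in epithelial and 1 in myoepithelial nuclei, and the higher count 0 in myoepithelial nuclei. With doublets kept, 7 were lower and 1 higher in Schwann and 1 higher in fibroblast nuclei. With classes from markers per nucleus, 5 were lower in endothelial and 4 in epithelial nuclei, and 1 higher in epithelial and 1 in fibroblast nuclei. Thinned, 0 were lower and 0 higher in endothelial, 2 lower in epithelial and 1 higher in myoepithelial nuclei. At resolution 2.0, and with collagens kept among the variable genes, 4 were lower and 0 higher in endothelial nuclei; at resolution 0.5, 6 were lower in epithelial nuclei. Under 1% mitochondrial UMIs, 2 were higher in endothelial and 1 in myoepithelial nuclei. With the free RNA profile subtracted, 1 was higher in fibroblast and 1 lower in myoepithelial nuclei. Across alternatives Col1a1 stayed between -1.01 and -0.88, Col6a6 between -1.22 and -0.82 and Col6a5 between -1.39 and -0.70 in fibroblast nuclei, whereas Col16a1 lay between -0.80 and -0.24 and so did not keep its fold under all of them. Col1a1 in Schwann nuclei lay between -4.46 (free RNA profile subtracted) and -1.64, and Col5a2 in myoepithelial nuclei between 0.89 and 2.42 (thinned), both from few UMIs. Classes of about 100 nuclei leave most collagens under 20 UMIs, so many members could not be compared there. Classes from markers per nucleus gave no value in Schwann and myoepithelial nuclei, with under 20 nuclei in a library, and the free RNA profile was not subtracted in the epithelial sum. No paired analysis was possible because each genotype had 1 library.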
